A study of Mus musculus with 41 samples.

Results

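The 7 genes described here encode the mouse cyclin-dependent kinase inhibitors: Cdkn1a, Cdkn1b and Cdkn1c of the Cip/Kip family, and Cdkn2a, Cdkn2b, Cdkn2c and Cdkn2d of the INK4 family. They were chosen by name, as family membership has it, and all 7 were found in the expression table, on 13 of the 20825 probes that carry 1 gene name and among 13283 named genes. Where a gene had several probes, the probe of highest mean gave the main value and the others are described separately. RNA had been measured on Illumina bead arrays in cells sorted from the thymus of male C57Bl/6 mice, in 41 arrays that form 14 groups. Thymic epithelial cells (TEC) were gated as CD45- EpCAM+ and the other stromal cells (nonTEC) as CD45- EpCAM-. Young mice were 5 to 6 weeks old. Middle-aged mice were 9 to 12 months old and were unoperated, sham-castrated or surgically castrated. The operated animals were sampled at days 4, 7 and 20 in TEC and at days 4 and 7 in nonTEC. Each group held 3 arrays except nonTEC sham day 7, which held 2. The labels do not say that arrays came from separate animals, and pooling is not stated either, so that p-values measure the spread between these arrays only.

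Cyclin-dependent kinases drive cells from one phase of the division cycle to the next once they are bound to a cyclin. The INK4 proteins bind CDK4 and CDK6 and keep cyclin D from activating them, whereas the Cip/Kip proteins bind whole cyclin-CDK complexes, above all those of CDK2. Both routes keep the retinoblastoma protein in its active state, in which it holds back the E2F factors that switch on replication genes. The thymus shrinks with age and grows again for a time after removal of sex steroids, and the series compared the same stromal fractions across ageing and castration.

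At the marker lists, all 6 epithelial markers tested were higher in unoperated TEC than in unoperated nonTEC, and all 5 fibroblast and 4 endothelial markers were lower, while 4 of 4 pericyte and smooth muscle and 3 of 4 pan-leukocyte markers were also higher in TEC and the remaining pan-leukocyte marker lower. Krt8, a keratin of simple epithelia, had group means between 13.15 and 13.52 on the log2 scale in TEC and between 7.09 and 10.05 in nonTEC. Pdgfra, a receptor of fibroblasts, ran from 4.94 to 7.25 in TEC and from 12.30 to 12.74 in nonTEC. Foxn1, the defining transcription factor of TEC, was dim in TEC, at 4.74 to 5.81, and Epcam itself was not analysed here. Ptprc, which encodes the CD45 antigen used to deplete leukocytes, lay between 4.42 and 5.14 in nonTEC, whereas the leukocyte gene Laptm5 had group means of 13.08 to 14.15 in TEC and 10.45 to 12.76 in nonTEC. The fibroblast gene Dcn stood at 11.30 to 12.74 in TEC, below its 14.12 to 14.51 in nonTEC. Arrays of a group correlated at 0.926 or more across probes, apart from TEC middle-aged unoperated, where the lowest correlation was 0.854. Throughout, a gene is called where its adjusted p (limma, Benjamini-Hochberg over all genes tested) is below 0.05, and a gene was tested where at least 1 group mean exceeded 6.73, the median of all values.

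Promoter sequences are shown for Cdkn1a and Cdkn2a, because both genes have more than one start and both were called at day 20 after castration. The windows are the 250 bases before the RefSeq start (GRCm38.p6), written 5′ to 3′ on the strand of the gene. Capitals mark p53 half-sites in the first window of Cdkn1a (chr17:29090729-29090978, plus strand), GC boxes in the second (chr17:29093519-29093768, plus strand), and the E2F core in both windows of Cdkn2a. The window of Cdkn2a nearer the 3′ end of the gene (chr4:89282193-89282442, minus strand) precedes the first exon of the p16Ink4a transcript, and the farther one (chr4:89294620-89294869, minus strand) that of the p19Arf transcript.
Cdkn1a, first start: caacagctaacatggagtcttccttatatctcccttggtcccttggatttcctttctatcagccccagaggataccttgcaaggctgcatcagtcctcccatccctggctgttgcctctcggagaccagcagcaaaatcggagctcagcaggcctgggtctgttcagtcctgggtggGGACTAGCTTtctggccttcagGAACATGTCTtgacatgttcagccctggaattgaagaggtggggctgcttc
Cdkn1a, second start: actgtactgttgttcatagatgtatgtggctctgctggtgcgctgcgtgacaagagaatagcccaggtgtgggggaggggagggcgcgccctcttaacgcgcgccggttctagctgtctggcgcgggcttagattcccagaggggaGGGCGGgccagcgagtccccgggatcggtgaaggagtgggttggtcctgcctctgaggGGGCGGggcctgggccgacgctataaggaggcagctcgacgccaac
Cdkn2a, p16Ink4a start: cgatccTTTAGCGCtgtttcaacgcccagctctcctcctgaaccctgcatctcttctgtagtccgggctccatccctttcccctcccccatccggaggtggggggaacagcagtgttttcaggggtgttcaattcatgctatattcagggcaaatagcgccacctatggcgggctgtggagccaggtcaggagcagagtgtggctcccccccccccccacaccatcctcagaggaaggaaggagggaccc
Cdkn2a, p19Arf start: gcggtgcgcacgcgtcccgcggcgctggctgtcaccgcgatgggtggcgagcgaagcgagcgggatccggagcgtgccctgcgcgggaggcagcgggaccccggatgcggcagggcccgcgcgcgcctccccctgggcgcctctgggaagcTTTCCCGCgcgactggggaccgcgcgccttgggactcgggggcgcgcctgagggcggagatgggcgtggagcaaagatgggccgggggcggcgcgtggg

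Both strands of 32851 such windows were searched, of which 9 belong to 6 of the inhibitors. The E2F core, TTTNNCGC, occurred in 4.28% of all windows and in 2 of the 9, which are those of Cdkn2a. The p53 half-site occurred in 7.13% of all windows and in 2 of the 9, with 2 matches before the first start of Cdkn1a and 1 before that of Cdkn2d. The GC box, GGGCGG, occurred in 32.7% of all windows and in 5 of the 9, belonging to Cdkn1a, Cdkn1b, Cdkn2a, Cdkn2c and Cdkn2d. The androgen receptor half-site, AGAACA, occurred in 16.1% of all windows and in 1 of the 9, before a start of Cdkn2c. These matches describe letters in a window, and the arrays measured neither binding nor which start was used.

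**Figure D1:**
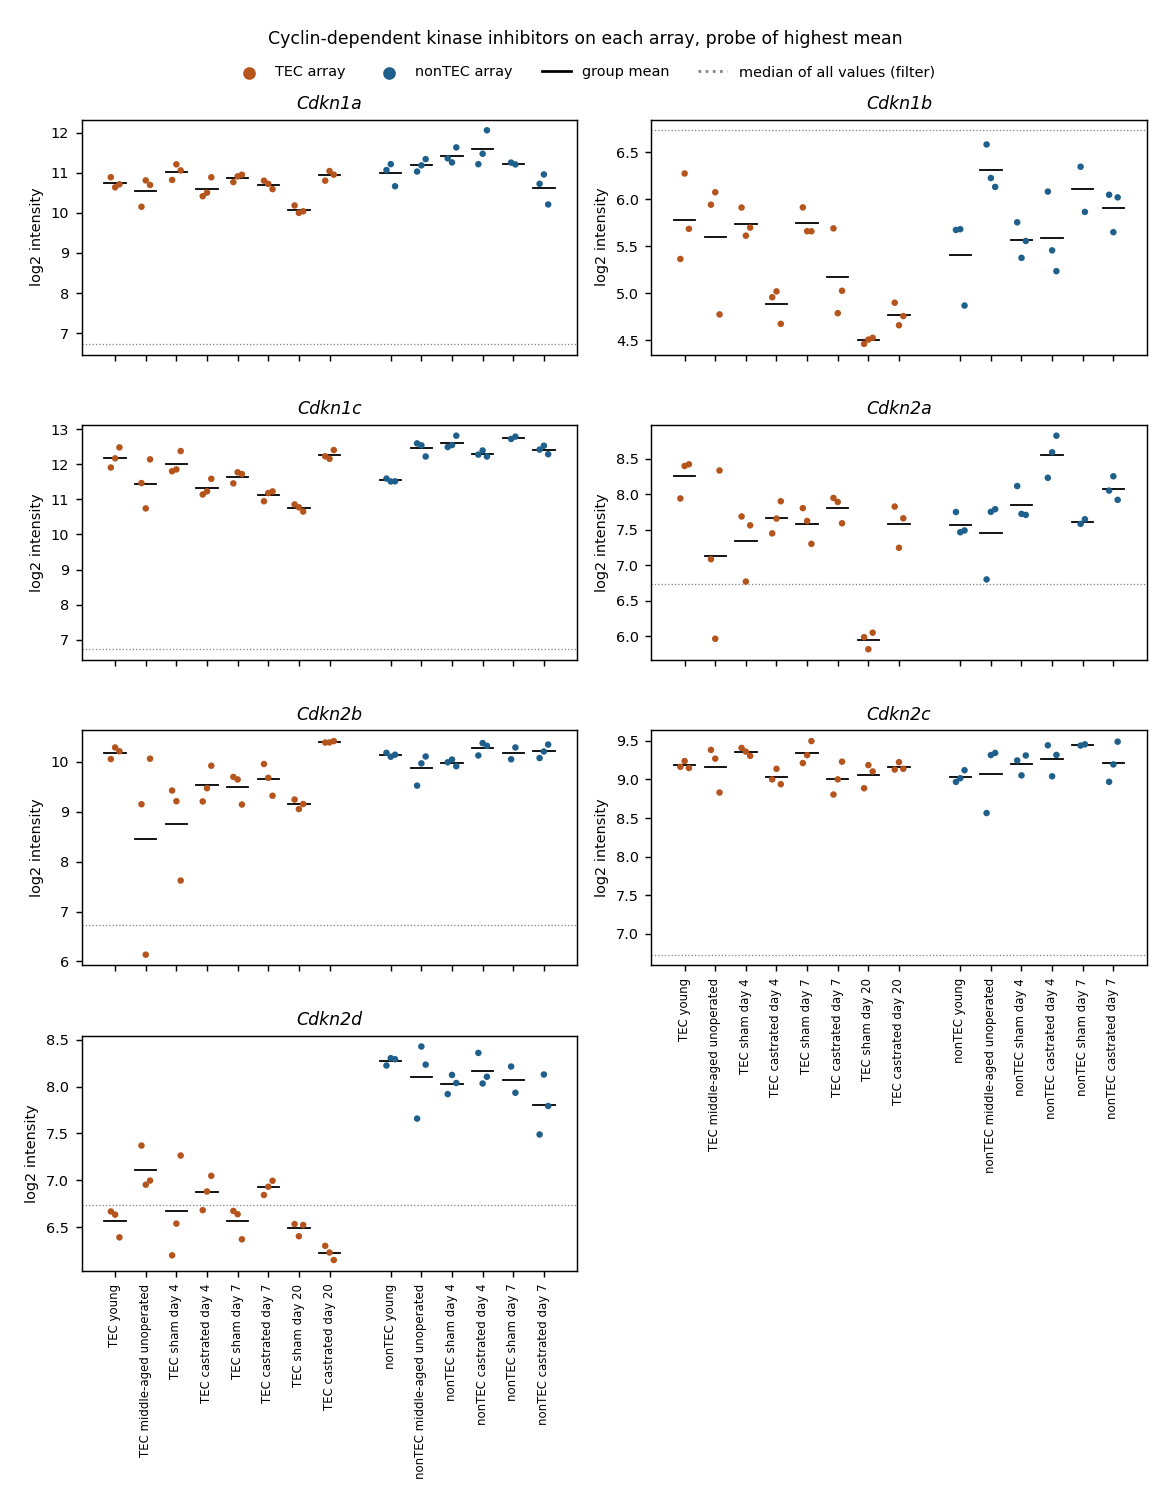
Log2 intensity of the main probe of each inhibitor (vertical axis) on each of the 41 arrays, by group (horizontal axis), with TEC in orange, nonTEC in blue, group means as black lines and the filter on dim genes, 6.73, as a dotted line. The 3 TEC sham day 20 arrays and 1 middle-aged array are the lowest TEC arrays of Cdkn2a, Cdkn1b lies under the dotted line on every array, and Cdkn2d is higher on all nonTEC arrays than on all TEC arrays.

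In TEC, 2 of the 6 inhibitors tested were lower in middle-aged than in young mice, and none was higher, where 18.8% of all genes tested were called. At day 20 after castration 3 of 6 were higher than in sham TEC and none lower, against 22.5% of all genes. No inhibitor was called at day 4 in TEC by limma, where 3.62% of all genes were called, or at day 7, where 0.171% were. At day 4, 3 inhibitors had an unadjusted p below 0.05, beside 2114 of all 8195 genes tested. At day 7, 2 did, beside 1079 of all genes. Over the 3 days together 1 of 6 was called, with 10.8% of all genes, and the castration difference varied with the day for 2 of 6, with 17% of all genes. The median difference of the 6 was -0.46 for ageing and 1.05 for castration at day 20, beside 0.01 and -0.04 over all genes.

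In nonTEC, 1 of the 6 inhibitors tested was higher in middle-aged mice and none lower, where 32.4% of all genes were called. None was called by limma for castration at day 4, with 6.31% of all genes called, or at day 7, with 0.438%. At each day 2 inhibitors had an unadjusted p below 0.05. Beside them stood 1733 of all 7771 genes tested at day 4 and 799 at day 7. Over both days 1 was higher and 1 lower after castration, with 6.54% of all genes called. The median over the 6 was -0.04 for ageing, 0.15 for day 4 and -0.25 for day 7, beside 0.02, -0.04 and 0.02 over all genes.

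For the operation itself few genes were called in nonTEC, while in TEC their share exceeded that for castration at day 4 or day 7. Sham against unoperated middle-aged arrays gave no called inhibitor by limma in TEC, with 5.58% of all genes called, or in nonTEC, with 0.283%. In each fraction 1 inhibitor had an unadjusted p below 0.05, beside 2165 of 8195 genes in TEC and 1616 of 7771 in nonTEC. Within the sham TEC arrays day 20 differed from days 4 and 7 in 57.8% of all genes, 34.1% being lower and 23.7% higher. Of the 6 inhibitors 4 were lower at day 20 and none higher. In the same comparison 3 of 4 pan-leukocyte markers (means of 9.75 to 10.11 at day 20, 10.85 to 11.51 at day 4 and 10.59 to 10.81 at day 7), 2 of 2 B lineage, 3 of 4 thymocyte and 1 of 3 myeloid markers were lower and none higher. Also lower were 2 of 4 pericyte and smooth muscle markers and 6 of 13 replication and mitosis genes, and 1 fibroblast marker was higher and 2 lower of 3. Of 6 epithelial markers 1 was higher and 2 were lower, and 1 of 2 endothelial markers was lower. The part of these genes and cell types in the inhibitor differences was not tested. The day 20 castration comparison uses those same sham day 20 arrays.

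**Figure D2:**
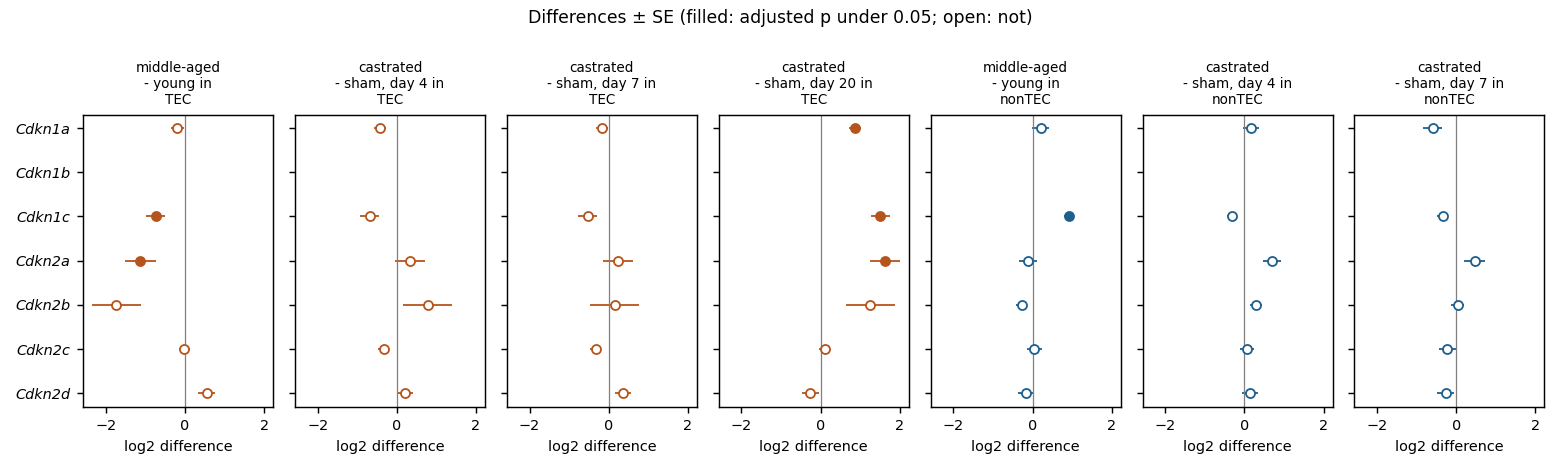
Log2 difference of the main probe (horizontal axis) for each inhibitor (vertical axis), with a panel for each ageing and castration comparison in TEC (orange) and nonTEC (blue), bars of 1 standard error, and filled points where the adjusted p is below 0.05; Cdkn1b was not tested. Cdkn1c, Cdkn2a and Cdkn1a stand at 1.50, 1.63 and 0.86 for castration at day 20 in TEC, and Cdkn1c lies at -0.74 for ageing in TEC and 0.91 in nonTEC.

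Cdkn1a encodes p21, the inhibitor that p53 induces after DNA damage. In TEC of young mice its 3 arrays read 10.89, 10.64 and 10.71, and in middle-aged unoperated mice 10.15, 10.81 and 10.70, so that the groups overlapped. The sham day 20 arrays read 10.18, 9.999 and 10.04, and the castrated day 20 arrays 10.80, 11.04 and 10.95. Every castrated array at day 20 was above every sham array, by 0.86 ± 0.16 (SE) or 1.81-fold (adjusted p = 0.000571). On this main probe the castrated arrays, at 10.93 ± 0.12 (SD, n = 3), overlapped the young arrays, at 10.75 ± 0.13 (SD, n = 3). Sham day 20, at 10.07 ± 0.10 (SD, n = 3), was the lowest of the 8 TEC groups there. The other probes of the gene did not reach the young range. Castrated day 20 arrays ran from 8.28 to 8.75 on the probe of middle mean, against 9.21 to 9.33 in young mice. On the dimmest probe they ran from 7.63 to 8.34, against 8.60 to 8.83.

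On the main probe the p21 transcript differed less at the earlier days. At day 4 the sham TEC arrays read 10.82, 11.21 and 11.06 and the castrated ones 10.41, 10.50 and 10.89, a difference of -0.43 ± 0.16 that missed the threshold (adjusted p = 0.104). At day 7 it was -0.17 ± 0.16 (adjusted p = 0.689). The castration difference of the main probe therefore ran from negative values at days 4 and 7 to a positive one at day 20. The test of that variation with day was called (F = 19.2, adjusted p = 0.00115). Among sham arrays, Cdkn1a was lower at day 20 than at days 4 and 7 by 0.88 on the log2 scale, written as -0.88 ± 0.13 (adjusted p = 2.13e-05), without overlap of arrays. The probe of middle mean was higher in castrated than in sham TEC on each day. Its means were 9.11 against 8.92 at day 4, 9.09 against 8.93 at day 7 and 8.45 against 7.83 at day 20.

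In nonTEC, the main Cdkn1a probe was highest in castrated day 4, with arrays at 11.21, 11.47 and 12.06, and lowest in castrated day 7, at 10.73, 10.96 and 10.21. Neighbouring groups in that order of means were no further apart than the larger of their SDs. On the other probes sham day 4 had the highest mean, and on the dimmest probe young had the lowest. The day 4 castration difference was 0.17 on the main probe, -0.02 on the probe of middle mean and -0.33 on the dimmest. On the main probe the sham day 7 arrays, 11.25 and 11.21, lay above all castrated day 7 arrays. That difference of -0.60 ± 0.23 was not called (adjusted p = 0.341). Ageing gave 0.20 ± 0.21 (adjusted p = 0.484). Over unoperated arrays of both ages TEC read lower than nonTEC by -0.43 ± 0.13 (adjusted p = 0.00433), in a comparison where 76.7% of all genes were called and the median of all genes was -0.26. The 2 fractions appear to have been normalised separately, and after quantile normalisation of all arrays the difference was -0.10 (adjusted p = 0.489), and after centring arrays on their medians -0.21 (adjusted p = 0.154).

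Cdkn1b encodes p27, a Cip/Kip inhibitor of resting cells that is largely controlled through protein breakdown. Its single probe was below the filter in both fractions, with group means from 4.50 to 5.77 in TEC and from 5.41 to 6.31 in nonTEC. It was not tested, and its level cannot be told from that of dim probes. The lowest TEC arrays were the sham day 20 ones, at 4.46, 4.51 and 4.53.

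Cdkn1c encodes p57, an imprinted Cip/Kip inhibitor associated with exit from the cell cycle, and it changed in opposite directions with age in the fractions. In TEC the young arrays read 11.91, 12.17 and 12.48, and the middle-aged unoperated arrays 11.46, 10.74 and 12.14. In nonTEC the young arrays read 11.59, 11.51 and 11.51, and the middle-aged unoperated arrays 12.59, 12.54 and 12.22. The groups overlapped in TEC, where 1 middle-aged array lay within the young range, and were far apart in nonTEC.

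The ageing difference of Cdkn1c was -0.74 ± 0.24 in TEC (1.67-fold lower, adjusted p = 0.0391) and 0.91 ± 0.12 in nonTEC (1.88-fold higher, adjusted p = 4.63e-05). The difference between those differences was -1.65 ± 0.29 (adjusted p = 0.000293), a test that called 11.2% of all genes. In nonTEC the call held under all 18 alternatives, among them the mean of the thymocyte markers as a covariate, which gave 0.79 (adjusted p = 0.00901). That mean did not overlap between young and middle-aged nonTEC arrays, so it is tied to age. The TEC call did not hold without young array 2 (-0.74, adjusted p = 0.0983), young array 3 (-0.59, adjusted p = 0.154), middle-aged array 1 (-0.74, adjusted p = 0.0646) or middle-aged array 2 (-0.38, adjusted p = 0.228), nor when the 6 arrays were fitted alone (adjusted p = 0.292). Fitted alone, the 12 arrays behind the difference between fractions gave an adjusted p of 0.0598. With sham arrays as the middle-aged group the differences were -0.71 in TEC (adjusted p = 0.0120) and 1.15 in nonTEC (adjusted p = 9.85e-07).

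After castration the Cdkn1c arrays of TEC lay below the sham arrays at days 4 and 7 and above them at day 20. At day 4 the castrated arrays read 11.14, 11.23 and 11.59 and the sham arrays 11.80, 11.85 and 12.38. At day 7 the castrated arrays read 10.95, 11.18 and 11.23 and the sham arrays 11.45, 11.77 and 11.72. The groups did not overlap at either day, but the differences of -0.69 ± 0.24 (adjusted p = 0.0940) and -0.53 ± 0.24 (adjusted p = 0.359) were not called.

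By day 20 the order was turned. The castrated arrays read 12.23, 12.16 and 12.41 against 10.86, 10.77 and 10.65 in sham mice, again without overlap. The difference was 1.50 ± 0.24, or 2.83-fold (adjusted p = 0.000234), and the test of variation with day gave F = 25.6 (adjusted p = 0.000357). Castrated day 20 was the highest TEC group, overlapping the young arrays, and sham day 20 the lowest. Among sham arrays day 20 was lower than days 4 and 7 by -1.07 ± 0.21 (adjusted p = 0.00025).

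In nonTEC the castrated Cdkn1c arrays lay below the sham arrays at both days. The day 4 arrays read 12.27, 12.39 and 12.22 in castrated and 12.49, 12.55 and 12.81 in sham mice, and the day 7 arrays 12.42, 12.53 and 12.29 against 12.72 and 12.79. No castrated array reached the lowest sham array of its day. Singly the differences were -0.32 ± 0.12 (adjusted p = 0.117) and -0.34 ± 0.13 (adjusted p = 0.339), and over both days -0.33 ± 0.09 (adjusted p = 0.0331). That last call was lost without castrated day 4 array 1 or 3, sham day 4 array 3, castrated day 7 array 1 or 3, or either sham day 7 array, with adjusted p between 0.0555 and 0.153, and in the fit without trend (adjusted p = 0.0592) or of all 41 arrays (adjusted p = 0.287).

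**Figure D3:**
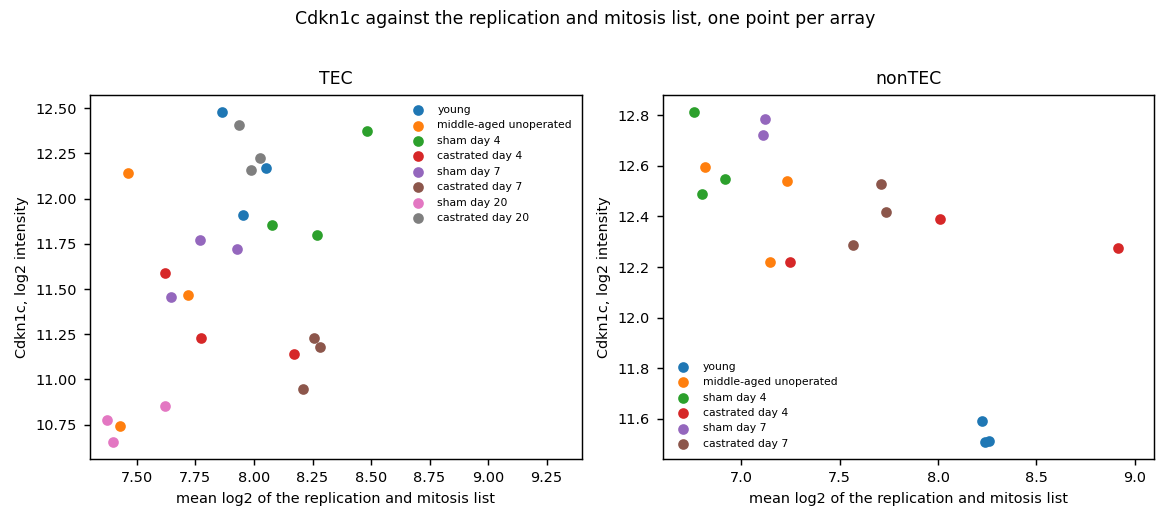
Log2 intensity of Cdkn1c (vertical axis) against the mean log2 intensity of the replication and mitosis genes (horizontal axis), 1 point per array, coloured by group, for TEC and nonTEC. In nonTEC the 3 young arrays stand alone at the lower right, with Cdkn1c between 11.51 and 11.59, while the sham arrays lie at the upper left. The Pearson correlation over arrays was -0.68 in nonTEC and of the other sign, 0.38, in TEC, both given as descriptions without a test.

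Cdkn2a encodes p16Ink4a, which binds CDK4 and CDK6, and, from another start and reading frame, p19Arf, which protects p53 from Mdm2. In TEC its main probe read 7.94, 8.40 and 8.42 in young mice and 7.09, 5.97 and 8.34 in middle-aged unoperated mice. Middle-aged array 3 lay within the young range and the other two below it. The difference was -1.12 ± 0.38, or 2.18-fold lower (adjusted p = 0.0449). It was no longer called without young array 1 (-1.28, adjusted p = 0.0541), young array 2 (-1.05, adjusted p = 0.131), young array 3 (-1.04, adjusted p = 0.121), middle-aged array 1 (-1.10, adjusted p = 0.0787) or middle-aged array 2 (-0.54, adjusted p = 0.260), in a fit of the 6 arrays alone (adjusted p = 0.315), or without the filter (adjusted p = 0.0537). Without middle-aged array 3 it was -1.73 (adjusted p = 0.000424). With sham arrays in place of unoperated ones it was -1.30 (adjusted p = 0.00508).

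At day 20 the castrated TEC arrays of Cdkn2a read 7.83, 7.25 and 7.66 and the sham arrays 5.99, 5.82 and 6.05. The sham arrays were all below the filter level of 6.73 and the castrated ones all above it. The difference of 1.63 ± 0.38 was called (adjusted p = 0.00431), and no fold is given because the sham level is that of dim probes. Sham day 20 was also below sham days 4 and 7 by -1.51 ± 0.33 (adjusted p = 0.000703).

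Earlier after castration the main Cdkn2a probe differed little, by 0.33 ± 0.38 at day 4 (adjusted p = 0.612) and 0.23 ± 0.38 at day 7 (adjusted p = 0.842). Averaged over the 3 days the difference was 0.73 ± 0.22 (adjusted p = 0.0391), and the variation with day was not called (F = 4.17, adjusted p = 0.117). The averaged call was lost when any of 12 of the 18 arrays was left out (sham day 4 array 2; castrated day 4 arrays 2 and 3; sham day 7 arrays 2 and 3; castrated day 7 arrays 1 and 2; castrated day 20 arrays 1 and 3; all 3 sham day 20 arrays), with adjusted p between 0.0573 and 0.0797. With the mean of its 3 probes it was 0.09 (adjusted p = 0.596). Of these 3 probes, 2 had the sign opposite to the main probe for the average over days, and likewise at day 4 and at day 7.

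In nonTEC the ageing difference of Cdkn2a was -0.12 ± 0.23 (adjusted p = 0.713), and its castrated arrays lay above the sham arrays. The castrated day 4 arrays read 8.23, 8.59 and 8.83 against 8.12, 7.72 and 7.71 in sham mice, and the castrated day 7 arrays 8.05, 8.25 and 7.92 against 7.58 and 7.65. Neither day overlapped, and neither was called (0.70 ± 0.23, adjusted p = 0.0741, and 0.46 ± 0.25, adjusted p = 0.589). Both days together gave 0.58 ± 0.17 (adjusted p = 0.0489). Leaving out any array of those days other than castrated day 4 array 1 or sham day 4 array 1 ended that call, with adjusted p between 0.0672 and 0.172. So did the fit without trend (adjusted p = 0.0533), either change of the filter (adjusted p = 0.0591 and 0.0583), the mean of its probes (0.39, adjusted p = 0.140) and the fit of all 41 arrays (adjusted p = 0.246).

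Cdkn2b encodes p15Ink4b, an inhibitor that TGF-beta induces. In TEC the young arrays read 10.06, 10.29 and 10.21, and the middle-aged unoperated arrays 9.15, 6.13 and 10.06. The second middle-aged array was the lowest of all 41 and widened the group to 8.45 ± 2.06 (SD, n = 3). The ageing difference of -1.74 ± 0.62 missed the threshold (adjusted p = 0.0553) and was -0.58 without that array. It was called in 7 of 18 alternatives, with adjusted p down to 0.00106. Without middle-aged array 3 it was -2.54 (adjusted p = 0.00258), and without middle-aged array 1 it was -2.09 (adjusted p = 0.0399).

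The day 20 arrays of Cdkn2b were tight, at 10.39, 10.39 and 10.42 in castrated and 9.24, 9.05 and 9.16 in sham TEC. They did not overlap, and castrated day 20 stood above every other TEC array. The difference of 1.25 ± 0.62 was not called with the spread shared by all TEC arrays (adjusted p = 0.159). Fitted on those 6 arrays alone it was called (adjusted p = 2.84e-08), in a fit that called 51.8% of all genes. In nonTEC Cdkn2b kept between 9.52 and 10.38 on all 17 arrays, and no comparison was called.

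Cdkn2c encodes p18Ink4c. Its main probe varied little, from 8.81 to 9.50 over the TEC arrays and from 8.57 to 9.49 over the nonTEC arrays. The castrated day 4 TEC arrays read 9.00, 9.14 and 8.94, all below the sham arrays at 9.41, 9.36 and 9.31. That difference of -0.33 ± 0.14 and the one of -0.33 ± 0.14 at day 7 were not called (adjusted p = 0.149 and 0.325). Sham day 20 against days 4 and 7 gave -0.29 ± 0.12 (adjusted p = 0.0477). That call held in 7 of 20 alternatives, and was lost without any of the sham day 4 arrays, sham day 7 array 2 or 3, or sham day 20 array 1 or 3, with adjusted p between 0.0508 and 0.230.

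Cdkn2d encodes p19Ink4d, and among the 6 inhibitors tested its main probe differed most between the fractions. Over the unoperated TEC arrays it read from 6.39 to 7.37, and over the unoperated nonTEC arrays from 7.66 to 8.43. No arrays overlapped, and the TEC minus nonTEC difference of -1.35 ± 0.14, or 2.56-fold (adjusted p = 3.83e-10), was called in all 22 alternatives. It was also below the median of all genes, -0.26. Cdkn1a was called as well, and 2 of 6 inhibitors stand beside 76.7% of all genes called. Cdkn1c, Cdkn2a, Cdkn2b and Cdkn2c did not pass that test on their main probes, at -0.18, 0.18, -0.69 and 0.12. The TEC values of Cdkn2d lie close to the filter level, and the fractions appear to have been normalised separately.

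Within TEC the differences of Cdkn2d for ageing and for castration at day 20 had the sign opposite to those of Cdkn1c and Cdkn2a, and none passed the threshold. The young arrays read 6.67, 6.63 and 6.39 and the middle-aged unoperated arrays 7.37, 6.95 and 7.00, a difference of 0.54 ± 0.21 (adjusted p = 0.0733) without overlap. Sham against unoperated gave -0.54 ± 0.17 (adjusted p = 0.0635), and -0.63 (adjusted p = 0.0133) without sham day 4 array 3. At day 7 the castrated arrays, 6.84, 6.93 and 6.99, lay above the sham arrays, 6.67, 6.64 and 6.37 (0.36 ± 0.21, adjusted p = 0.468). At day 20 they lay below, at 6.30, 6.23 and 6.15 against 6.53, 6.40 and 6.52 (-0.26 ± 0.21, adjusted p = 0.418). These values lie close to the filter level.

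The castration difference, taken over days 4 and 7, was also compared between fractions. No inhibitor was called by limma, where 6.04% of all genes were. None had an unadjusted p below 0.05, beside 2114 of 8487 genes that did. The differences ran from -0.30 for Cdkn2a to 0.35 for Cdkn2d.

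Several genes had probes that went apart. Cdkn1a had 3 probes, and at day 4 in TEC the dimmest read 7.81, 5.26 and 5.40 in castrated and 8.37, 9.00 and 9.01 in sham mice. That difference of -2.64 ± 0.58 was called in a fit of all probes (adjusted p = 0.0264), with the middle probe at 0.19 and the main one at -0.43. Castrated day 4 arrays 2 and 3 stood apart there, the same arrays being low on a second Cdkn2a probe, at 6.83, 5.45 and 5.54 against 7.49, 7.26 and 7.41 in sham mice (-1.45 ± 0.32, adjusted p = 0.0264). The main Cdkn2a probe was higher by 0.33 in the same arrays, so the sign at day 4 depends on the probe. Other dim probes were also spread in castrated day 4. The third Cdkn2a probe ran from 4.96 to 6.07 (median 5.03), and the dimmer Cdkn2c probes from 4.61 to 6.25 (median 4.81) and 4.39 to 6.43 (median 4.42). The dim Cdkn1b and Cdkn2d probes were tighter, at 4.68 to 5.02 and 6.68 to 7.05. Whether these drops belong to castration or to the arrays was not tested.

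The 3 probes each of Cdkn1a and Cdkn2a had the same sign at day 20 and for ageing in TEC, whereas 1 of the 3 Cdkn2c probes had the sign opposite to its main probe in each of these. The second Cdkn2a probe was higher at day 20 by 1.06 ± 0.32 (adjusted p = 0.0238) and lower with age in TEC by -1.28 ± 0.32 (adjusted p = 0.0119). The third probe, too dim in TEC to be tested, differed by 0.65 and -0.68. The other Cdkn1a probes were higher at day 20 by 0.61 ± 0.26 (adjusted p = 0.105) and 0.70 ± 0.58 (adjusted p = 0.457). Which of the p16Ink4a and p19Arf transcripts each Cdkn2a probe detects was not determined.

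Probes also went apart between fractions and, for Cdkn2c, with age in nonTEC. A dimmer Cdkn2c probe read 6.04, 6.61 and 6.72 in young and 7.22, 7.84 and 7.77 in middle-aged nonTEC, a difference of 1.15 ± 0.23 (adjusted p = 0.00166) where the main probe gave 0.04. It was also lower in TEC than in nonTEC, by -1.25 ± 0.26 (adjusted p = 6.07e-05), against 0.12 for the main probe. For Cdkn2a the second probe was higher in TEC, by 1.11 ± 0.20 (adjusted p = 6.77e-06), and the third probe lower, by -0.70 ± 0.19 (adjusted p = 0.00127).

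**Figure D4:**
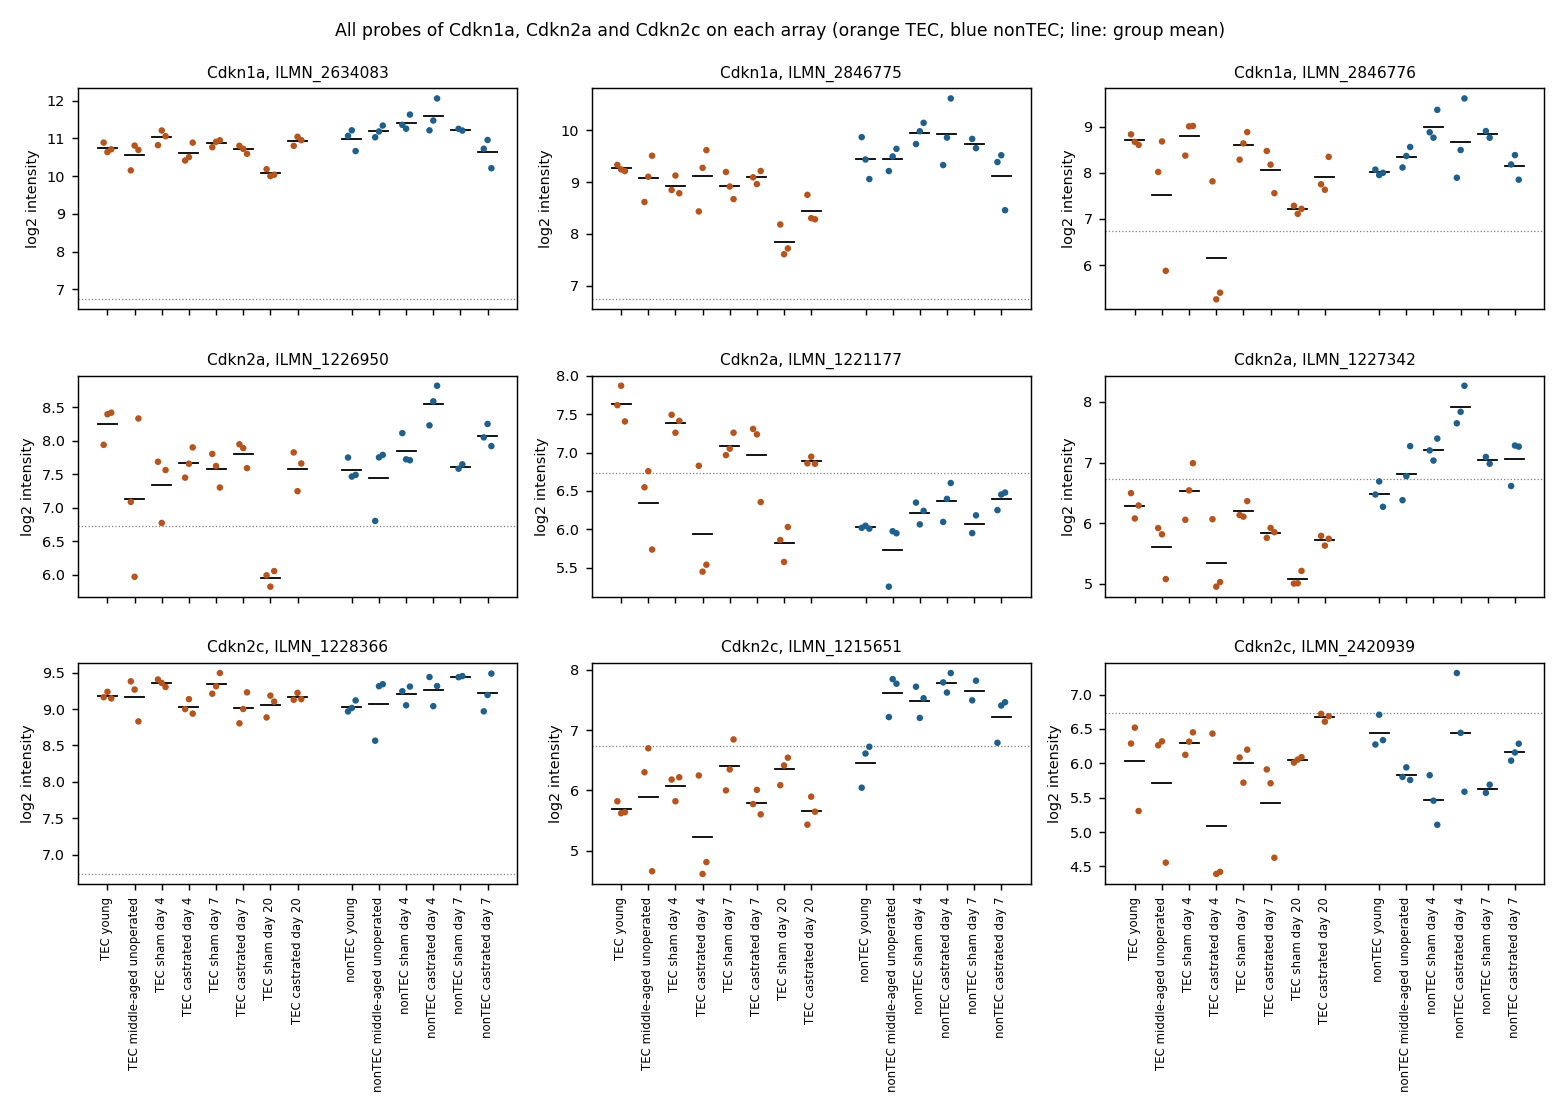
Log2 intensity (vertical axis) of each of the 3 probes of Cdkn1a, Cdkn2a and Cdkn2c on every array, by group (horizontal axis), with TEC in orange, nonTEC in blue, group means as lines and the filter level of 6.73 dotted. The third Cdkn1a probe and the second Cdkn2a probe drop on TEC castrated day 4 arrays 2 and 3, which the main probes do not.

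The targets of the inhibitors are the kinases, cyclins and pocket proteins through which they act. At day 20 in TEC, 2 of 4 tested INK4 targets were lower in castrated mice, Ccnd3 by -0.57 (adjusted p = 0.00841) and Ccnd1 by -0.46 (adjusted p = 0.0142), both D-type cyclins, and none was higher. Neither of 2 tested Cip/Kip targets was called. Of 8 Rb and E2F genes, E2f2 was higher by 1.23 (adjusted p = 0.00229) and E2f6, a repressor of the family, lower by -0.51 (adjusted p = 0.0246). Of 13 replication and mitosis genes 4 were higher and none lower, among them Cdc20, an activator of the anaphase-promoting complex, by 1.19 (adjusted p = 0.00147) and the mitotic kinase Aurka by 0.87 (adjusted p = 0.00434). The median of that list was 0.64, in the same arrays in which 3 inhibitors were higher.

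Upstream of the inhibitors, 4 of 11 tested regulators were lower at day 20 and none higher. They included Trp63, the p53 relative of epithelial progenitors, by -1.01 (adjusted p = 0.00228), and Foxo1, a transcription factor that can induce Cip/Kip genes, by -1.004 (adjusted p = 0.00462). Of 11 p53 targets 2 were higher and 1 lower, with the death receptor Fas at 0.79 (adjusted p = 0.000138) and the stress protein Sesn1 at -0.87 (adjusted p = 0.00918). Of 5 senescence-associated genes 2 were higher, the lysosomal beta-galactosidase Glb1 by 0.94 (adjusted p = 0.0027) and the lamin Lmnb1 by 0.54 (adjusted p = 0.0333). Lmnb1 is known to fall in senescent cells, whereas Glb1 rises in them. The phosphatase gene Cdkn3 was higher by 0.92 (adjusted p = 0.0179).

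Markers of leukocytes moved with the day 20 difference. All 4 pan-leukocyte markers tested, of 5 listed, were higher in castrated mice, and their mean level ran from 10.98 to 11.24 over castrated and from 9.75 to 10.11 over sham arrays. Both B lineage markers tested and 2 of 3 myeloid markers were also higher, with B lineage means of 6.70 to 7.03 against 5.70 to 5.90 and myeloid means of 9.92 to 10.09 against 8.72 to 8.80. None of 4 thymocyte markers was called (6.63 to 6.84 against 5.90 to 6.34), and the thymocyte genes Rag1 and Dntt stayed below the filter in all TEC groups. None of 6 epithelial and 3 fibroblast markers was called, although the fibroblast means ran from 7.17 to 7.22 over castrated and from 6.65 to 6.75 over sham arrays. Of 4 pericyte and smooth muscle markers Acta2 was higher by 0.998 (adjusted p = 0.00803), with list means of 8.06 to 8.26 against 7.42 to 7.72. In such bulk samples fewer cells of a type and less RNA per cell cannot be told apart, and the part of these cell types in the inhibitor differences was not tested.

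With age in TEC the regulators went the other way, 6 of 11 being higher and none lower. Foxo1 was higher by 1.31 (adjusted p = 0.00114) and the TGF-beta receptor Tgfbr2 by 1.13 (adjusted p = 0.00647). Ccnd3 was the called gene of 4 INK4 targets, at 0.53 (adjusted p = 0.018), and Tyms, which makes thymidylate, that of 13 replication genes, at -1.51 (adjusted p = 0.0386). Sesn1 was higher by 0.98 (adjusted p = 0.00719) and Fas lower by -0.46 (adjusted p = 0.0127) among 11 p53 targets, and none of 5 senescence-associated genes was called. Of the pan-leukocyte markers 3 of 4 were lower, with means of 10.03 to 10.99 in middle-aged and 11.35 to 11.45 in young arrays. Myeloid markers were lower in 2 of 3 (7.81 to 8.99 against 9.59 to 9.75) and B lineage markers in 1 of 2 (6.72 to 7.99 against 7.60 to 7.84), while of 4 thymocyte markers 1, Cd8b1, was higher by 0.58 (adjusted p = 0.0206). In addition 3 of 4 pericyte and smooth muscle markers were lower (7.71 to 8.57 against 8.75 to 9.05). Their part in the lower Cdkn1c and Cdkn2a values was not tested.

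In nonTEC the rise of Cdkn1c with age stood beside lower replication genes. Of 14 replication and mitosis genes 12 were lower and none higher, with a median of -1.22, Aurkb at -2.15 (adjusted p = 0.000175) and Top2a at -2.58 (adjusted p = 0.000332). The mean of the list ran from 6.82 to 7.23 on middle-aged and from 8.22 to 8.26 on young arrays, as the plot against Cdkn1c shows. Of 4 INK4 targets 3 were lower, Ccnd1 by -0.66 (adjusted p = 0.00129) and Cdk4 by -0.82 (adjusted p = 0.00173), and Cdk1 among the Cip/Kip targets was lower by -3.00 (adjusted p = 7.37e-06). Lmnb1 was lower by -1.21 (adjusted p = 0.00271) and the matrix protease Mmp3 higher by 0.38 (adjusted p = 0.0488), the called genes of 8 associated with senescence.

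Other cell types moved in the same nonTEC arrays. All 6 thymocyte markers tested were lower in middle-aged mice, with means of 6.91 to 7.90 against 8.36 to 9.28, and so were all 4 pan-leukocyte (7.35 to 8.24 against 9.55 to 9.97), 3 B lineage and 3 myeloid markers tested. Of the 4 epithelial markers 3 were lower, and of 6 fibroblast markers 3. With the thymocyte mean as a covariate the Cdkn1c difference was 0.79, as given above. Because the thymocyte means did not overlap between the ages, that fit cannot tell thymocyte content from age. The part of the other cell types was not tested.

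At day 4 after castration in nonTEC, where no inhibitor was called by limma, other lists were. Of 14 replication and mitosis genes 11 were higher and none lower, with Aurka at 1.89 (adjusted p = 0.00732) and Aurkb at 1.56 (adjusted p = 0.0126), and Cdk1 was higher by 2.33 (adjusted p = 0.00156). All 6 thymocyte, 4 pan-leukocyte and 4 epithelial markers tested were higher too, whereas none of 3 B lineage markers, 3 myeloid markers and 4 INK4 targets was called by the same fit and 1 of 6 fibroblast markers was lower. At day 7 in TEC, where Cdkn1c was lower without being called, E2f1 was higher by 1.06 (adjusted p = 0.0238), the replication helicase subunit Mcm6 by 1.07 (adjusted p = 0.0407) and Lmnb1 by 0.89 (adjusted p = 0.0433).

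The genes whose pattern over arrays was most like that of each inhibitor differed between fractions. Over the 24 TEC arrays and 8195 genes the highest Pearson correlations of Cdkn1c were with Rsph1 (0.95), Asprv1 (0.94) and Prap1 (0.94), and those of Cdkn2a with Cblif (0.94), Tmprss7 (0.93) and Fxyd6 (0.92). Cdkn1a was nearest to Rtn1 (0.86), Cdr2 (0.84) and Klk4 (0.81), and Cdkn2b to Cpt2, Gal and Olig1 (0.93 each). Correlations for Cdkn2c did not exceed 0.69, the value with Tmem62, and Cdkn2d reached 0.81 with Adcy4. Over the 17 nonTEC arrays and 7771 genes Cdkn1a was nearest to Sertad1 (0.93), Jund (0.90) and Socs1 (0.86), and Cdkn1c to C4b, Slc16a9 and Scin (0.96 each). Cdkn2a reached 0.89 with Coq7, Cdkn2b 0.92 with Smco4, Cdkn2c 0.85 with Dgcr6 and Cdkn2d 0.84 with Arpc5l. The arrays share groups and normalisation, and these values are descriptions without a test.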

How the data were processed

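Sorted TEC and nonTEC RNA was hybridised to 41 Illumina arrays. The authors deposited a table of 24671 probes with log2 values, normalised per the submitters' processing notes with limma; how background was corrected, how arrays were normalised and which log base was used is not stated in the labels or notes at hand, and log2 was read from the range of values. TEC arrays had a median of 6.68 and nonTEC arrays medians of 6.81 to 6.82, while 18386 probes were present in both fractions, so that levels set across fractions rest on separate normalisation. Probes were named from the platform annotation (20825 with 1 gene, 11 with several, 3835 with none; 20799 matched RefSeq by gene ID). Groups came from the titles. The probe of highest mean stood for each gene, which was tested with limma 3.58.1 in R 4.3.3 (lmFit, eBayes with trend) on all arrays of a fraction, with 16, 11 and 27 residual degrees of freedom in TEC, nonTEC and both. Genes without a group mean above 6.73 were left out, and p-values were adjusted by Benjamini-Hochberg over all genes tested. The fit was tested on simulated data. Named genes are all 7 inhibitors with every probe, and the 2 called genes of smallest p in each list. The inhibitors and lists were chosen with earlier results of these data known. The number of arrays limits the precision. Arrays of the same replicate number were not treated as pairs in the main fit. The median correlation of their deviations was 0.051 in TEC and -0.027 in nonTEC, beside -0.036 and 0.012 for other numbers. In TEC 35 of 84 same-number pairs exceeded 0.1, against 34 of 168 other pairs, so that some shared structure may remain there. Alternatives covered the filter, normalisation, probe choice, trend, array weights, arrays fitted, a replicate block and each array left out. Figures were drawn with matplotlib 3.10.9.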

Additional observations from a re-analysis of the deposited data

Results flagged for a closer look

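The castration difference in TEC varied with the day for Cdkn1c (adjusted p = 0.000357, limma), from -0.69 at day 4 and -0.53 at day 7 to 1.50 at day 20, and for Cdkn1a (adjusted p = 0.00115), from -0.43 and -0.17 to 0.86. Both kept that call under all 29 alternatives. The day 20 value rests on the sham day 20 arrays, which were the lowest TEC group on the main probe of each gene. For Cdkn1a the signs are those of the main probe, and its probe of middle mean was higher in castrated TEC on each day. The ageing difference of Cdkn1c differed between the fractions (adjusted p = 0.000293), at -0.74 in TEC and 0.91 in nonTEC, and that call held in 22 of 23 alternatives. Single outlying arrays were not tested in groups of 3 and 2.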

How the results depend on the processing

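Counts of called inhibitors (of 6 tested, 7 without the filter) moved most under these alternatives. With array weights, whose estimation stopped before its tolerance in TEC, they were 5 in place of 2 for ageing in TEC, 2 for castration at day 4 and 2 at day 7 in place of 0, 5 in place of 3 at day 20, 3 in place of 1 over days, 6 in place of 2 by day and 2 in place of 0 for sham against unoperated. In nonTEC array weights gave 2 at day 4 and 2 at day 7 in place of 0, and 5 in place of 1 for the ageing difference and 1 in place of 0 for the castration difference between fractions. Without the 4 TEC arrays that stand apart (middle-aged 3, castrated day 4 2 and 3, sham day 4 3) the counts were 4 for ageing in TEC, 2 for sham against unoperated, 4 in place of 2 for TEC against nonTEC and 4 for the ageing difference between fractions. No measure of standing apart is given here. Middle-aged array 3 was the one nearest the young arrays for Cdkn1c, Cdkn2a and Cdkn2b, at 12.14, 8.34 and 10.06. Leaving it out therefore widens their ageing differences in TEC. Fitting only the arrays compared gave 0 for ageing in TEC, 2 over days in TEC and 0 for the ageing difference. Averaging all probes of a gene gave 2 at day 4 in TEC, 0 over days in TEC, 1 over days in nonTEC, 2 for the ageing difference and 1 for the castration difference, and it reversed Cdkn2a at day 4 in TEC to -0.77 (adjusted p = 0.0276) and Cdkn2c between fractions to -0.46 (adjusted p = 0.0277). Without the filter the counts were 1 for ageing in TEC, 2 for ageing in nonTEC, the second being the dim Cdkn1b, and 1 over days in nonTEC. The stricter filter, of 7.84, gave 1 over days in nonTEC in place of 2, the fit without trend 0, and the replicate block 0. The fit of all 41 arrays gave 1 at day 4 in TEC, 1 for sham against unoperated in TEC and 0 over days in nonTEC, and sham in place of unoperated arrays gave 2 for the ageing difference. Smaller moves included 4 in place of 3 at day 20, with Cdkn2b added, when only the arrays compared were fitted or the 4 arrays were left out, and 3 in place of 2 by day, with Cdkn2a added, under those settings and with the mean of all probes. Ageing of Cdkn2b in TEC was called in 5 alternatives besides the single arrays left out: quantile normalisation (adjusted p = 0.0491), median centring (0.0477), array weights (0.00106), all 41 arrays (0.0137) and the 4 arrays left out (0.00113). The cause of these shifts was not tested. With the replicate block the count remained 2 for ageing, 3 at day 20 and 2 by day in TEC and 1 for ageing in nonTEC; it ended 1 more call, Cdkn2c for sham day 20 (adjusted p = 0.0506).

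Leaving out 1 array at a time gave 0 to 3 for ageing in TEC, 0 to 1 over days in TEC, 0 to 1 for sham against unoperated in TEC, 3 to 4 for sham day 20, 0 to 2 over days in nonTEC, 2 to 4 for TEC against nonTEC and 1 to 3 for the ageing difference. It left 3 at day 20 and 2 by day in TEC, and 1 for ageing in nonTEC. Among single values, Cdkn1a, Cdkn1c and Cdkn2a at day 20 were called under all 17 alternatives, with adjusted p up to 0.00631, 0.00208 and 0.0248. Dim probes limit Cdkn1b, Cdkn2d in TEC and the additional Cdkn2a and Cdkn2c probes.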
